A study of Mus musculus with 24 samples.

Results

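Mitochondrial ribosomal proteins were followed at the RNA level in mouse bone marrow-derived macrophages exposed to inflammatory or anti-inflammatory stimuli. Members were the protein-coding genes whose GENCODE M21 symbol begins with Mrpl or Mrps and a number, with at least 10 counts in 3 or more of the 24 libraries. This rule took 76 of the 43629 gene identifiers in each file, 47 with an Mrpl symbol and 29 with an Mrps symbol. Of 77 such protein-coding genes in the files only Mrpl53 fell under the count minimum, and 1 further protein-coding gene of the annotation was not analysed here. All 76 members passed the filter on low counts and were among the 12765 genes tested. The cells came from wild-type C57BL/6 mice and were used on day 7 of culture with CSF-1 at 20 ng/mL, a cytokine that drives macrophage growth and that stayed in the medium during stimulation. They received lipopolysaccharide (LPS, the bacterial agonist of TLR4), LPS with interferon gamma (IFNg) at 50 ng/mL, or interleukin 4 (IL-4) at 20 ng/mL. Others received no stimulus, and cells were taken after 1 h or 18 h. That gave 8 groups of 3 libraries. For LPS, 20 and 100 ng/mL are both listed without being assigned to groups. Between LPS with IFNg and LPS alone, a difference in LPS dose therefore cannot be told apart from IFNg. Between 1 h and 18 h with LPS, or with LPS and IFNg, such a difference cannot be told apart from time. Whether replicates were independent cultures or mice is not stated, so a p-value here reflects variation among libraries that may be partly or wholly technical. The series concerns DNA damage and a need for NAD+ that accompany signalling by reactive oxygen species in these cells.

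The mitochondrial ribosome sits in the matrix and translates the few mRNAs of the mitochondrial genome, all of which encode subunits of the respiratory chain and ATP synthase. Its rRNAs come from the mitochondrial genome, whereas all of its proteins are encoded in the nucleus, made in the cytosol and imported. Some of these proteins descend from bacterial ribosomal proteins and others were added during the evolution of mitochondria. By their uniform ribosomal protein names, 49 members belong to the large subunit and 26 to the small subunit. By the same names 45 are classed as having a bacterial homolog and 30 as specific to mitochondria. These 30 include Mrps18a (mL66) and Mrps18b (mS40), though both are relatives of bacterial S18. The remaining member, Mrps36, carries a ribosomal symbol but is now known as a component of the 2-oxoglutarate dehydrogenase complex (KGD4). In macrophages, LPS with IFNg is known to shift metabolism from respiration toward glycolysis, and IL-4 toward oxidative metabolism.

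Total counts per library ran from 4181890 to 8122945. Levels are given as CPM (counts relative to library size) after TMM scaling, which sets libraries to a common level by trimmed mean ratios between them. All 8 macrophage markers examined (among them Adgre1, Csf1r, Cd68 and Lyz2) were detected in every library. Their summed level at 18 h was 21081 to 22972 CPM of the library total with LPS, 9976 to 10241 CPM with LPS and IFNg and 11273 to 11884 CPM with IL-4, against 17201 to 19035 CPM in unstimulated cells. The 5 neutrophil markers summed to 19.2 to 37.0 CPM in the LPS with IFNg libraries at 18 h and to 76.5 to 127 CPM in unstimulated libraries at 18 h, and of them Ly6g never exceeded 0.491 CPM. The 2 endothelial markers, Pecam1 (up to 11.9 CPM) and Cdh5 (up to 2.2 CPM), summed to 9.96 to 14.1 CPM with LPS, 6.83 to 8.34 CPM with LPS and IFNg and 7.02 to 12.0 CPM with IL-4 at 18 h, against 0.906 to 2.19 CPM unstimulated. Each of the other 7 lists stayed at or under 9.70 CPM in every library, with Cd3e of T cells at 0. The part of these markers in the results below was not tested, and in bulk RNA fewer cells of a type and less RNA per cell cannot be told apart. A pair of libraries stood apart from the others of their group. Replicate 2 of the LPS group at 18 h had the highest value of the 3 libraries for 71 of 76 members, against 42.6% of all tested genes. Replicate 2 of the IL-4 group at 18 h had the highest value for 67 of 76 members, against 35.9% of all tested genes. Leaving both out was tried after seeing the data, and the values without them are given where these groups are described.

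Summed over the 76 members, the level at 18 h was 2567 ± 269 CPM in the IL-4 group and 1901 ± 59.3 CPM in the LPS with IFNg group, against 2102 ± 41.6 CPM in unstimulated cells (SD, n = 3 each). The LPS group at 18 h summed to 2174, 2723 and 2111 CPM in its 3 libraries, a mean of 2336 ± 337 CPM, so replicate 2 alone lay well above the unstimulated range. In the IL-4 group at 18 h the libraries summed to 2337, 2862 and 2501 CPM, each above every unstimulated library, of which the highest had 2142 CPM. At 1 h the sums were close together, at 1899 ± 135 CPM with LPS, 1813 ± 47.2 CPM with LPS and IFNg, 2023 ± 55.1 CPM with IL-4 and 1919 ± 82.9 CPM unstimulated (SD, n = 3 each). The direction for LPS alone at 18 h depended on scaling: relative to the library total, without TMM, the sum was 2027 ± 225 CPM with LPS and 1527 ± 35.6 CPM with LPS and IFNg, against 2447 ± 66.5 CPM unstimulated, while IL-4 cells had 2861 ± 279 CPM (SD, n = 3 each). Members together took 0.149% to 0.316% of all counts in a library.

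**Figure D1:**
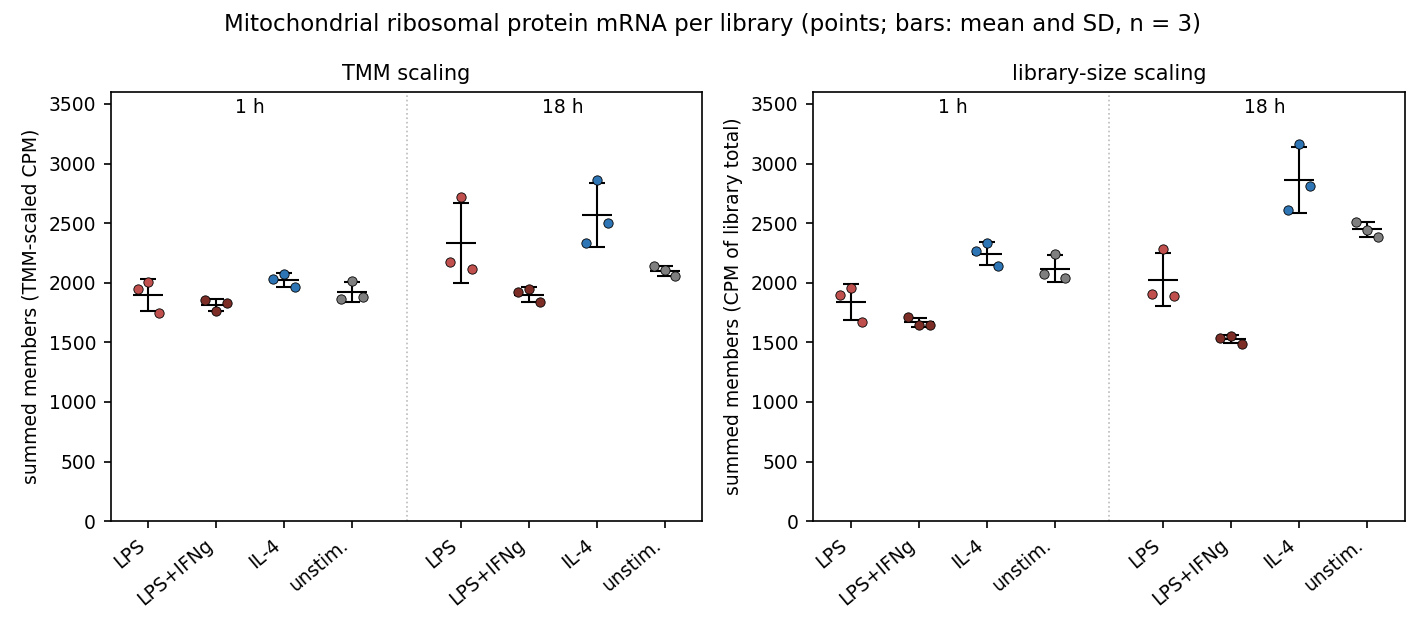
Summed level of the 76 mitochondrial ribosomal protein genes in each library, in CPM, under TMM scaling (left) and relative to the library total (right); points are libraries and bars the group mean with SD (n = 3). Under both scalings IL-4 cells at 18 h were highest (means of 2567 and 2861 CPM), whereas the LPS group at 18 h lay above unstimulated cells on the left and below them on the right.

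The mean level of a member over all libraries ran from 10.2 CPM to 54.1 CPM, with a median of 25.7 CPM, and no member fell under 25 counts in any library. Per kilobase of merged exon, the highest levels were those of Mrps21 (40.7 CPM per kb), Mrpl27 (37.3) and Mrpl54 (35.6). The lowest were those of Mrps35 (1.45), Mrps10 (2.27) and Mrpl32 (2.79). Merged length covers all annotated exons of a gene, whether expressed here or not. It ran from 607 to 8631 bases, the latter in Mrps35, so these ranks depend in part on the annotation. The members lay on 17 chromosomes, with 11 on chromosome 11 and 8 on chromosome 17. Exons of 27 members overlap a gene on the opposite strand, 8 of them over at least 20% of their length, and 45 overlap no exon of another gene. The range of a gene over its 8 group means, on a log2 scale, had a median of 0.77 for members and 1.17 for all tested genes, and it reached 1 for 19 of 76 members against 58.3% of all tested genes. The widest ranges were those of Mrps28 (2.09), Mrpl23 (2.01), Mrpl52 (1.91), Mrpl15 (1.51) and Mrpl49 (1.43), and the narrowest those of Mrpl10 (0.25), Mrps9 (0.27) and Mrpl48 (0.29). The highest of the 8 group means was that of IL-4 at 18 h for 51 members and that of LPS at 18 h for 21, or for 49 and 12 without both libraries that stood apart. The lowest was that of LPS with IFNg for 51 members, 27 at 18 h and 24 at 1 h, with the same numbers without those libraries. The counts over all libraries used means of log2 CPM, and those without these libraries used means of CPM. The step therefore differs in measure as well as in libraries. No share over all tested genes is given beside these counts.

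The ratio of summed large-subunit to summed small-subunit CPM was 2.52 ± 0.06 with LPS and 2.56 ± 0.02 with LPS and IFNg at 18 h, against 2.24 ± 0.03 in unstimulated cells, and it was 2.22 ± 0.05 with IL-4 (SD, n = 3 each). Replicate 2, the library that stood apart, had 2.48 in the LPS group, beside 2.59 and 2.50 in the others, and 2.19 in the IL-4 group, beside 2.20 and 2.28. The 6 libraries of the LPS groups at 18 h held ratios of 2.48 to 2.59, above the highest unstimulated ratio of 2.28. This ratio does not depend on the scaling of the library, and the difference was not tested. At 1 h it was 2.31 ± 0.03 with LPS, 2.16 ± 0.05 with LPS and IFNg, 2.13 ± 0.08 with IL-4 and 2.16 ± 0.07 unstimulated (SD, n = 3 each).

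Promoters of 67 members were found in the RefSeq table (build GRCm38.p6) and searched over the 250 bases before the start, on both strands. Letters that match nuclear respiratory factor 1 (NRF1, a regulator of nuclear genes for mitochondrial proteins; GCGCANGCG) stood in 19.4% of member promoters and 7.24% of the 17492 promoters of protein-coding genes. The core of ETS factors including GABP, another such regulator (CCGGAAG), stood in 23.9% against 9.13%, and that of YY1 (AANATGGC) in 10.4% against 3.74%. The E-box of MYC and USF (CACGTG) stood in 7.46% of member promoters against 6.64%, the GC box of SP1 (GGGCGG) in 49.3% against 42.7%, and the interferon response letters (GAAANNGAA) in 10.4% against 6.93%. Matches of different motifs may overlap, and the median GC content was 58.4% in member promoters and 55.2% in all. A match describes letters only. Of the 67 windows 11 lie wholly and 31 partly inside the annotated gene of the member itself, whose first start in the gene annotation is then further upstream, and 25 lie outside it, among them those printed here. The upstream sequences below, read on the strand of the gene, belong to 4 members that the results turn on: Mrpl52, which had the largest rise with LPS, at chr14:54426659-54426908 (plus strand); Mrpl45, which was higher at 18 h with LPS and with LPS and IFNg, at chr11:97315466-97315715 (plus strand); Mrpl44, which was lower at 1 h with both, at chr1:79775768-79776017 (plus strand); and Mrps2, which was lower at 1 h with LPS and IFNg, at chr2:28467816-28468065 (plus strand). Capitals mark an ETS match in Mrpl52, a pair of NRF1 matches in Mrpl45 and 1 NRF1 match in Mrpl44, and the Mrps2 window holds none of the motifs searched.
Mrpl52: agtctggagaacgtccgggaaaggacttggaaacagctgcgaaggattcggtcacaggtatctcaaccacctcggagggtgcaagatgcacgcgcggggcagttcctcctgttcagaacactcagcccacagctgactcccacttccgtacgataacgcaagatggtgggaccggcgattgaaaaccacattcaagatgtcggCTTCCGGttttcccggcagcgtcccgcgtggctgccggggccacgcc
Mrpl45: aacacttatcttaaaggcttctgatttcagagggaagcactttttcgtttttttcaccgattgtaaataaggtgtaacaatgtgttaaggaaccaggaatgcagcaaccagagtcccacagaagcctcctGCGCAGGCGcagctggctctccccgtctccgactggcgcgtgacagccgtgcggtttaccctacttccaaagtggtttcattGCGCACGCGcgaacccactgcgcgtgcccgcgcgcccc
Mrpl44: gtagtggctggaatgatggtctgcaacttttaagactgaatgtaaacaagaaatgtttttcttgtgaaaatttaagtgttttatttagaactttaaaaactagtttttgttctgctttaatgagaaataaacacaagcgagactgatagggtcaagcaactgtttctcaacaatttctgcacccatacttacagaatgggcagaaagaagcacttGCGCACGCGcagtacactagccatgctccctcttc
Mrps2: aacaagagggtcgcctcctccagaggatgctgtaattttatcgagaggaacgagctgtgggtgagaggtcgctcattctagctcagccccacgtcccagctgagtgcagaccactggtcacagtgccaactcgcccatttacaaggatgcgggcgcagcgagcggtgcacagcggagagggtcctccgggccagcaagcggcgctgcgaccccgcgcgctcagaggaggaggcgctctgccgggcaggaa

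At 1 h LPS moved few members, in both directions. Of 76, 3 were called higher and 3 lower at an adjusted p below 0.05 (edgeR's quasi-likelihood test on all libraries, Benjamini-Hochberg over all 12765 tested genes), against 10.8% of all tested genes called higher and 11.4% called lower. Mrpl52 (chr14:54426909-54429756, GRCm38), a mitochondria-specific protein of the large subunit, had 40.9, 39.5 and 28.5 CPM with LPS and 19.9, 18.2 and 17.3 CPM in unstimulated cells, with no overlap between the groups (log2 fold change 0.98 ± 0.16, adjusted p = 2.34e-05). For log2 fold changes, here and below, ± gives the standard error of the fit and not the SD. Mrpl39 (chr16:84717576-84735742), another mitochondria-specific large-subunit protein, had 43.5, 44.9 and 43.3 CPM with LPS and 23.5, 24.98 and 21.6 CPM unstimulated (log2 fold change 0.91 ± 0.10, adjusted p = 3.34e-08). These 3 LPS values for Mrpl39 lay within 2 CPM of each other and above all others of that gene in the series. Mrpl49 (chr19:6053622-6057785) fell to 13.02, 16.2 and 13.8 CPM with LPS, against 25.3, 23.4 and 27.03 CPM unstimulated (log2 fold change -0.81 ± 0.12, adjusted p = 5.99e-06). Mrpl44 (chr1:79776018-79781445), a large-subunit protein of the RNase III family, had 13.6, 14.6 and 13.5 CPM with LPS and 21.6, 21.6 and 23.1 CPM unstimulated (log2 fold change -0.66 ± 0.14, adjusted p = 0.000799). In both genes every LPS library lay under every unstimulated one. Those 4 calls held under every alternative. Mrps28 (log2 fold change 0.47 ± 0.15, adjusted p = 0.0217) and Mrpl43 (log2 fold change -0.36 ± 0.12, adjusted p = 0.029) were called too, but each was lost on leaving out single libraries: Mrps28 without LPS replicate 2 or 3 or unstimulated replicate 1 or 3 (0.37 to 0.46), Mrpl43 without LPS replicate 2 or 3 or unstimulated replicate 2 or 3 (-0.37 to -0.32). Without unstimulated replicate 1 the count called lower was 5, and with library-size scaling, which moves the median of all genes by -0.19, it was 20 lower and 2 higher. Exons of Mrpl43, Mrpl44 and Mrpl49 overlap a gene on the opposite strand over 33.4%, 7.7% and 4.9% of their length (Twnk, Wdfy1 and Syvn1), and the strand setting of the counting is not given in the sources used here. With LPS at 1 h Twnk was lower too (log2 fold change -1.32 ± 0.23, adjusted p = 3.98e-05), while the values of Wdfy1 (-0.40) and Syvn1 (-0.06) did not pass the test. The part of these genes in the member values was not tested.

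LPS with IFNg at 1 h gave 3 members called higher and 6 lower, against 14.7% of all tested genes called higher and 14.7% called lower. Mrpl52, Mrpl39 and Mrps28 were again the 3 called higher (log2 fold changes 0.52, 0.48 and 0.44). Mrps2 (chr2:28468066-28471178), the small-subunit homolog of bacterial S2, had 15.9, 17.3 and 17.2 CPM with LPS and IFNg and 25.7, 29.8 and 30.4 CPM unstimulated (log2 fold change -0.76 ± 0.11, adjusted p = 2.8e-06). The libraries did not overlap, and with LPS alone the same gene had 24.01, 24.7 and 22.8 CPM. Mrpl44 (log2 fold change -0.79 ± 0.14, adjusted p = 4.63e-05), Mrpl49 (log2 fold change -0.71 ± 0.12, adjusted p = 1.57e-05), Mrpl43 (log2 fold change -0.57 ± 0.12, adjusted p = 0.000338), Mrpl9 (log2 fold change -0.40 ± 0.10, adjusted p = 0.00273) and Mrps23 (log2 fold change -0.37 ± 0.14, adjusted p = 0.041) were lower. Among the overlapping genes, Twnk was lower (-1.01) and Wdfy1 was lower (-0.91). The calls for Mrps2, Mrpl44, Mrpl49, Mrpl43 and Mrpl9 held under every alternative, and none of the 3 higher calls did. Without unstimulated replicate 3, or without LPS with IFNg replicate 1 or 3, 1 member was called higher. Library-size scaling, which shifts the median of all genes by -0.25 here, gave 0 higher and 45 lower. Set against LPS alone at 1 h, the cells with IFNg had 0 members higher and 2 lower (6.52% and 5.25% of all tested genes). DESeq2 also called 0 higher, and 1 had an unadjusted p below 0.05. The lower members were Mrps2 (log2 fold change -0.50 ± 0.12, adjusted p = 0.00369) and Mrpl39 (log2 fold change -0.43 ± 0.10, adjusted p = 0.00304), and both calls held under every alternative. Mrpl39 had 34.3, 31.7 and 32.1 CPM with LPS and IFNg, below its 3 values with LPS alone and above those of unstimulated cells.

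IL-4 at 1 h gave 2 members called higher and 0 lower, against 3.22% and 3.27% of all tested genes. DESeq2 also called 0 lower, and 0 had an unadjusted p below 0.05. Mrpl36 (chr13:73328513-73332178), homolog of the small bacterial protein L36, had 21.7, 21.4 and 23.1 CPM with IL-4 and 15.8, 18.7 and 12.95 CPM unstimulated (log2 fold change 0.47 ± 0.12, adjusted p = 0.0136). Mrpl22 (chr11:58171661-58179565), whose bacterial homolog lines the exit tunnel, was the other (log2 fold change 0.44 ± 0.13, adjusted p = 0.0464). Neither call held under every alternative: there were 0 calls without unstimulated replicate 1, unstimulated replicate 3 or IL-4 replicate 3, and 1 without IL-4 replicate 2.

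**Figure D2:**
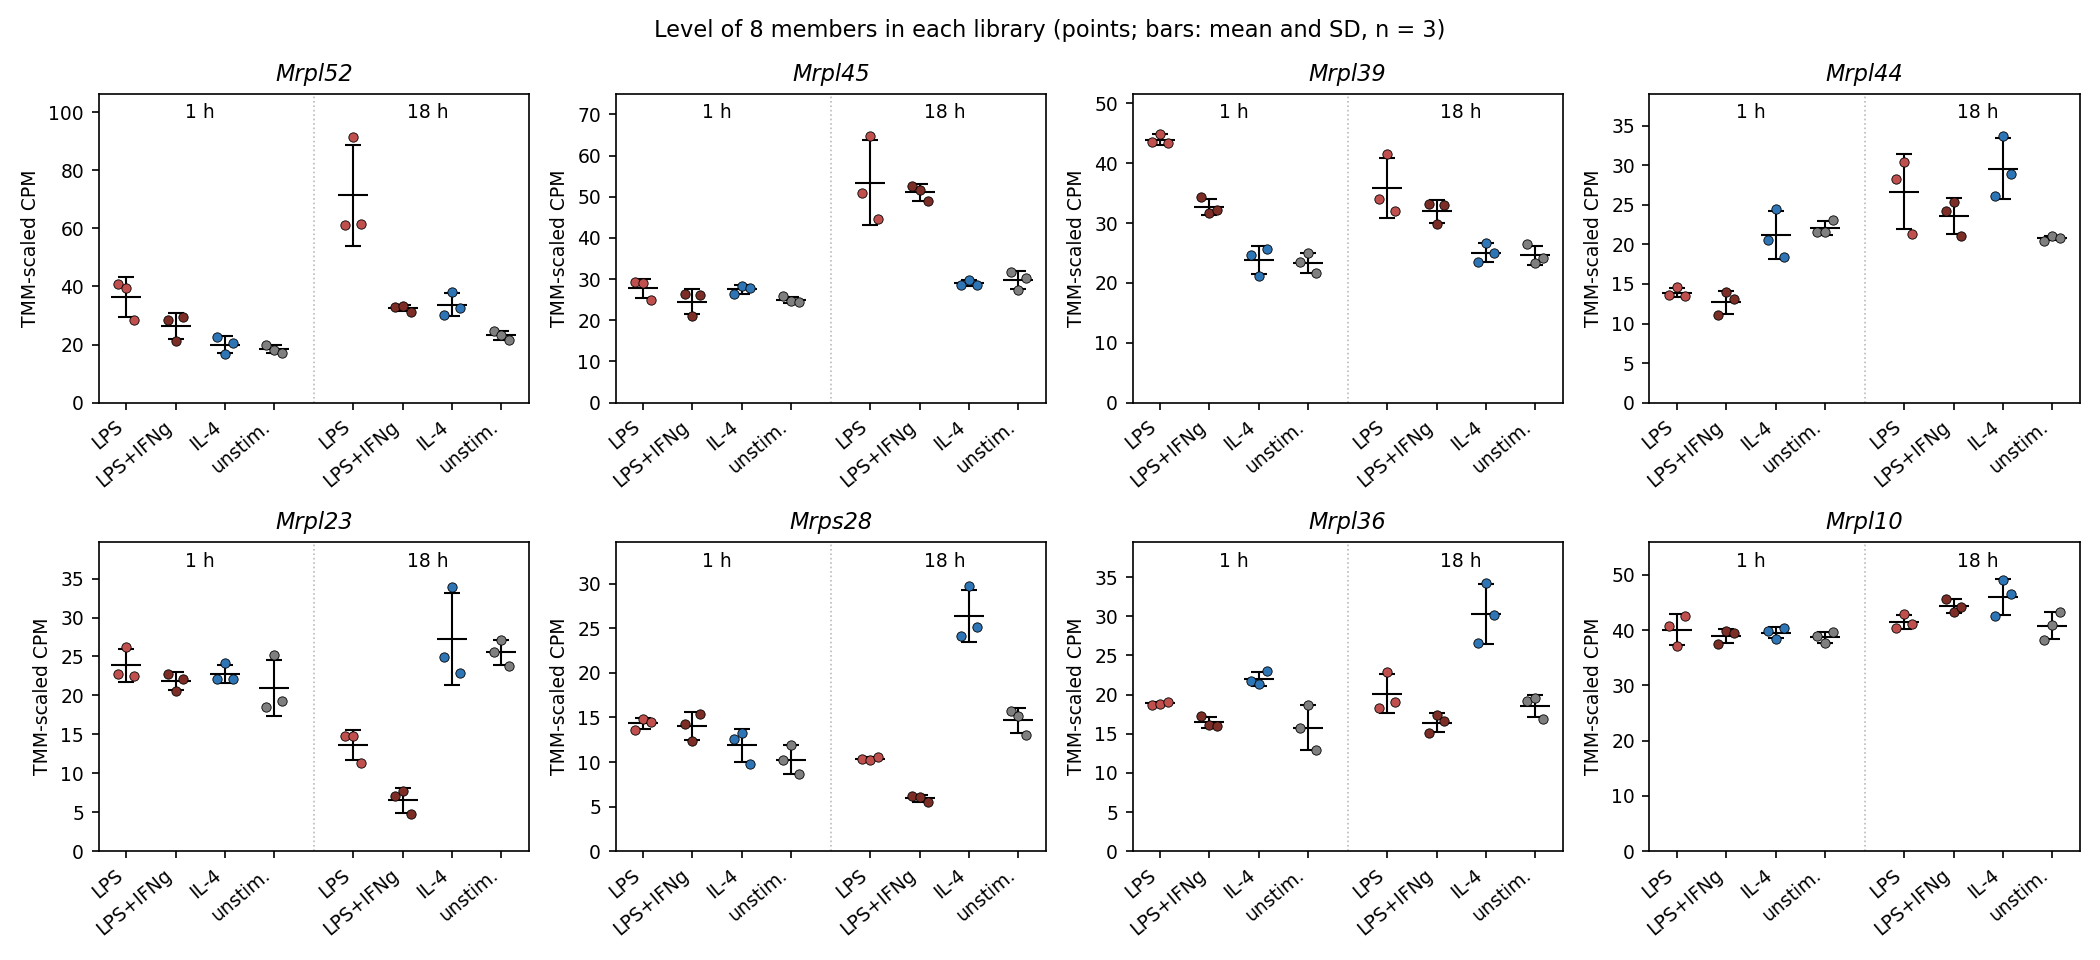
Level of 8 members in every library, in TMM-scaled CPM, by stimulus at 1 h and 18 h; points are libraries, bars the group mean with SD (n = 3). Mrpl52 is highest with LPS at 18 h (61.3 to 91.3 CPM), Mrpl39 with LPS at 1 h (43.3 to 44.9 CPM) and Mrps28 with IL-4 at 18 h (24.2 to 29.7 CPM), while Mrpl23 is lowest with LPS and IFNg at 18 h (4.73 to 7.78 CPM) and Mrpl10 has the narrowest range of all members.

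At 18 h LPS gave calls in both directions, each at a share under that of all tested genes. Of 76, 20 were called higher and 7 lower under TMM scaling, but 5 higher and 43 lower under library-size scaling, which moves the median of all genes by -0.41. Under TMM scaling 26.3% of members were called higher and 9.21% lower, against 31.8% and 31.3% of all tested genes. The median log2 fold change was 0.11 for members and 0.00597 for all tested genes. Mrpl52 had 61.3, 91.3 and 61.5 CPM with LPS and 24.7, 23.3 and 21.5 CPM unstimulated (log2 fold change 1.62 ± 0.14, adjusted p = 5.66e-11), the largest rise of any member in any comparison. Without replicate 2, the library that stood apart, its log2 fold change was 1.41. Mrpl45 (chr11:97315716-97329920), which anchors the mitochondrial ribosome at the inner membrane near the exit tunnel, had 50.8, 64.8 and 44.6 CPM with LPS and 31.8, 27.4 and 30.3 CPM unstimulated (log2 fold change 0.84 ± 0.11, adjusted p = 7.05e-08). Mrpl1 (chr5:96209493-96266727), of the L1 stalk, had 25.6, 32.3 and 25.7 CPM with LPS and 16.3, 13.7 and 15.7 CPM unstimulated (log2 fold change 0.87 ± 0.12, adjusted p = 4.08e-07). In all 3 genes every LPS library lay above every unstimulated one. Mrpl32, a large-subunit protein matured by the m-AAA protease (0.81), and Mrpl27, homolog of a bacterial protein next to the peptidyl transferase centre (0.72), were higher as well.

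In the other direction, Mrpl23 (chr7:142532686-142540747), whose bacterial homolog lies at the rim of the exit tunnel, fell to 14.8, 14.8 and 11.3 CPM with LPS, against 25.6, 27.1 and 23.8 CPM unstimulated (log2 fold change -0.90 ± 0.16, adjusted p = 1e-05). Mrps28 (chr3:8802146-8923918), named as the mitochondrial counterpart of bacterial S1, had 10.3, 10.2 and 10.6 CPM with LPS and 15.7, 15.2 and 13.01 CPM unstimulated (log2 fold change -0.50 ± 0.14, adjusted p = 0.00379), the reverse of its direction at 1 h. The annotation holds 1 pseudogene named after Mrpl23, so its counts carry some uncertainty. Mrps26 (-0.75), Mrps25 (-0.45) and Mrpl42 (-0.43) were lower as well. Mrps25 is a doubtful case, since 69.8% of its exon length overlaps Nr2c2 on the opposite strand. These 5 higher and 5 lower calls held under every alternative, and the counts around them did not. Without LPS replicate 2 there were 12 higher and 12 lower, and without both libraries that stood apart 13 higher and 14 lower, with a median of -0.00352. Of the large subunit 15 of 49 members were called higher and 4 lower, and of the small subunit 5 of 26 higher and 3 lower. Without both libraries that stood apart these counts were 11 and 5 for the large and 2 and 8 for the small subunit.

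LPS with IFNg at 18 h gave more lower than higher calls, though both shares were under those of all tested genes. The counts were 10 higher and 24 lower, or 13.2% and 31.6% of members. Of all tested genes 36.1% were called higher and 36.1% lower. The median log2 fold change was -0.13 for members and -0.00465 for all tested genes. Mrpl23 had 7.14, 7.78 and 4.73 CPM with LPS and IFNg and 25.6, 27.1 and 23.8 CPM unstimulated (log2 fold change -1.95 ± 0.18, adjusted p = 4.12e-11), and Mrps28 had 6.21, 6.07 and 5.49 CPM and 15.7, 15.2 and 13.01 CPM (log2 fold change -1.30 ± 0.16, adjusted p = 2.14e-08). In both genes every library with LPS and IFNg lay under every unstimulated one. Mrpl16 (chr19:11770391-11774960), homolog of a bacterial protein near the tRNA binding sites, had 10.7, 8.53 and 9.09 CPM with LPS and IFNg and 14.6, 22.5 and 18.7 CPM unstimulated (log2 fold change -0.97 ± 0.15, adjusted p = 1.53e-06). Mrpl57 (chr14:57826234-57829296), specific to mitochondria, had 8.38, 10.4 and 10.2 CPM with LPS and IFNg and 19.3, 18.3 and 18.8 CPM unstimulated (log2 fold change -0.97 ± 0.16, adjusted p = 2.44e-06). No library with LPS and IFNg reached the unstimulated range in either gene. Mrpl42 (-0.89), Mrpl19 (-0.88), Mrpl50 (-0.87) and Mrpl15 (-0.80) were lower too. Exons of Mrpl19 overlap Gcfc2 on the opposite strand over 36.0% of their length. Gcfc2 was lower here too (-0.57), and its part in the Mrpl19 values was not tested.

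Mrpl45 rose in this comparison as with LPS alone, with 52.6, 51.6 and 48.9 CPM with LPS and IFNg and 31.8, 27.4 and 30.3 CPM unstimulated (log2 fold change 0.78 ± 0.11, adjusted p = 1.76e-07). Of the 34 calls 21 held under every alternative, 20 of them lower, and Mrpl45 was the only higher one among them. The other 4 of the 5 largest rises, Mrpl27 (0.68), Mrpl1 (0.54), Mrpl52 (0.49) and Mrpl32 (0.43), were lost with library-size scaling, where Mrpl52 and Mrpl32 had values of -0.045 and -0.11. That scaling moved the median of all genes by -0.54 and gave 1 higher and 66 lower. Among small-subunit members 1 of 26 was higher and 10 lower, and among large-subunit members 9 of 49 were higher and 13 lower.

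At 18 h LPS with IFNg, set beside LPS without it, gave calls nearly all in one direction. The LPS dose of each group is not stated, so dose and IFNg cannot be told apart here. Against LPS alone, 2 members were called higher and 38 lower, where 24% of all tested genes were called higher and 23.4% lower, and the median log2 fold change was -0.32 (-0.0042 for all tested genes). Mrpl52 had 32.9, 33.4 and 31.2 CPM with LPS and IFNg and 61.3, 91.3 and 61.5 CPM with LPS (log2 fold change -1.13 ± 0.14, adjusted p = 9.28e-08). Mrpl57 had 8.38, 10.4 and 10.2 CPM with LPS and IFNg and 19.6, 23.8 and 18.9 CPM with LPS (log2 fold change -1.10 ± 0.16, adjusted p = 8.98e-07). Mrpl23 (log2 fold change -1.05 ± 0.20, adjusted p = 6.5e-05), Mrpl16 (log2 fold change -0.95 ± 0.16, adjusted p = 8.31e-06) and Mrps28 (log2 fold change -0.80 ± 0.17, adjusted p = 0.000324) followed. In these 5 genes no library with IFNg reached the range of LPS alone. Without LPS replicate 2 the count called lower was 24, and 2 were higher. Without both libraries that stood apart it was 25 lower and 3 higher, with a median of -0.22. Library-size scaling, with the median of all genes moved by -0.12, gave 50 lower and 0 higher. Of the 38 lower calls 24 held under every alternative. Mrpl49 and Mrpl9 made up the higher calls (0.27 and 0.23), and without any 1 of LPS replicates 1 and 3 or LPS with IFNg replicates 1, 2 and 3 that count was 0 or 1. Among members with a bacterial homolog 25 of 45 were lower, and among those specific to mitochondria 12 of 30, or 17 and 8 without both libraries that stood apart. Among the 45 members whose exons overlap no other gene, 26 were lower and 0 higher, or 17 and 0 without those libraries.

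**Figure D3:**
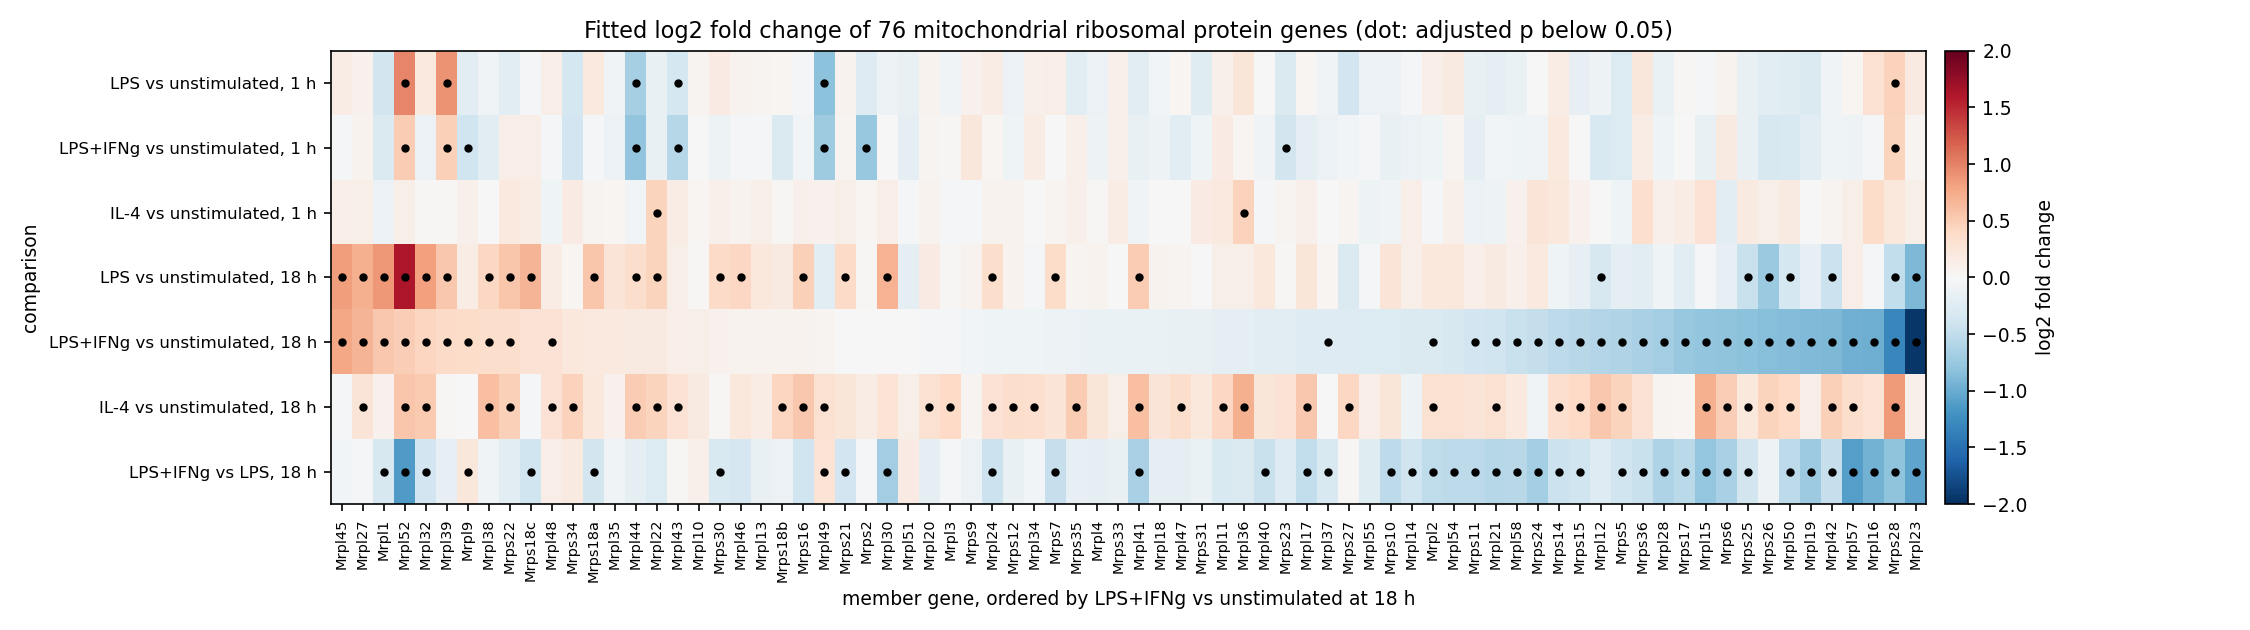
Fitted log2 fold change of each of the 76 members (columns, ordered by LPS with IFNg against unstimulated at 18 h) in 7 comparisons (rows), red higher and blue lower in the group named first; a dot marks an adjusted p below 0.05. The 18 h rows hold most dots: 20 higher and 7 lower with LPS (5 and 43 with library-size scaling), 10 higher and 24 lower with LPS and IFNg (1 and 66 with that scaling), 39 higher with IL-4 (21 without its replicate 2), and 38 lower with IFNg added to LPS (24 without LPS replicate 2). Of all tested genes 31.8% were called higher and 31.3% lower with LPS, 36.1% each way with LPS and IFNg, 19% higher with IL-4, and 23.4% lower with IFNg added.

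IL-4 at 18 h gave many small rises and no fall among the calls. There were 39 of 76 called higher and 0 lower, where 19% of all tested genes were called higher and 20.1% lower, and the median log2 fold change was 0.28 (-0.00559 for all tested genes). Mrps28 had 24.2, 29.7 and 25.2 CPM with IL-4 and 15.7, 15.2 and 13.01 CPM unstimulated (log2 fold change 0.85 ± 0.12, adjusted p = 1.15e-06). Mrpl36 had 26.5, 34.2 and 30.2 CPM with IL-4 and 19.1, 19.5 and 16.9 CPM unstimulated (log2 fold change 0.72 ± 0.11, adjusted p = 9.36e-06). Mrpl15 (chr1:4773206-4785739), with a homolog deep in the bacterial large subunit, had 42.4, 53.8 and 48.6 CPM with IL-4 and 32.5, 24.5 and 32.3 CPM unstimulated (log2 fold change 0.70 ± 0.12, adjusted p = 3.69e-05). In each of the 3 genes all IL-4 libraries lay above all unstimulated libraries. Mrpl38 (log2 fold change 0.60 ± 0.13, adjusted p = 0.000502) and Mrpl41 (log2 fold change 0.60 ± 0.15, adjusted p = 0.00194), both specific to mitochondria, came next. The rise took in both subunits, with 25 of 49 large and 14 of 26 small members called, and both origins, with 22 of 45 members with a bacterial homolog and 17 of 30 specific to mitochondria. Without both libraries that stood apart these 4 counts were 15, 10, 13 and 12. DESeq2 and every other alternative also called 0 lower, and 0 had an unadjusted p below 0.05 in that direction. The count called higher was 21 without IL-4 replicate 2, 25 without both libraries that stood apart (median 0.20) and 28 with library-size scaling, while 20 members kept their call under every alternative. Mrpl23, the member with the largest fall under LPS with IFNg, had 24.9, 33.98 and 22.9 CPM with IL-4 and 25.6, 27.1 and 23.8 CPM unstimulated and was not called (log2 fold change 0.11 ± 0.13, adjusted p = 0.551).

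In unstimulated cells the share of members called higher at 18 h than at 1 h was near that of all tested genes. Of 76, 4 were called higher and 0 lower, or 5.26% and 0% of members, against 4% and 8.01% of all tested genes. The median log2 fold change of the members was 0.13. DESeq2 also called 0 lower, and 0 had an unadjusted p below 0.05. The higher members were Mrps28 (log2 fold change 0.50 ± 0.14, adjusted p = 0.016), Mrpl42 (log2 fold change 0.39 ± 0.12, adjusted p = 0.0325), Mrpl49 (log2 fold change 0.33 ± 0.10, adjusted p = 0.0319) and Mrps24 (log2 fold change 0.32 ± 0.11, adjusted p = 0.0442). None of the 4 kept its call under every alternative: 0 were called without 1 h replicate 1 or without 18 h replicate 1 or 2, 1 without 1 h replicate 3 and 2 without 1 h replicate 2.

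The change in response between the times was tested with interaction terms. The LPS dose at each time is not stated, so for LPS and for LPS with IFNg dose and time cannot be told apart. For LPS, 15 members had a higher log2 fold change at 18 h than at 1 h and 5 a lower one, or 19.7% and 6.58% of members, against 27% and 27.2% of all tested genes. Mrpl1 (difference of log2 fold changes 1.24 ± 0.19, adjusted p = 2.35e-06) and Mrpl44 (difference of log2 fold changes 1.02 ± 0.19, adjusted p = 5.49e-05) led the first, and Mrpl23 (difference of log2 fold changes -1.09 ± 0.22, adjusted p = 0.000107) and Mrps28 (difference of log2 fold changes -0.96 ± 0.21, adjusted p = 0.000264) the second. The count of 5 was 2 without LPS 1 h replicate 2, LPS 18 h replicate 1 or unstimulated 1 h replicate 1, and 3 without LPS 1 h replicate 1, LPS 18 h replicate 3, unstimulated 1 h replicate 3 or unstimulated 18 h replicate 1 or 3, and library-size scaling gave 6 and 12. For LPS with IFNg, 13 members were higher at 18 h by this measure and 17 lower (17.1% and 22.4% of members), against 31.8% and 32.2%, with Mrpl44 (difference of log2 fold changes 0.97 ± 0.19, adjusted p = 6.39e-05) and Mrpl1 (difference of log2 fold changes 0.83 ± 0.19, adjusted p = 0.000304) on one side and Mrpl23 (difference of log2 fold changes -2.004 ± 0.23, adjusted p = 1.28e-08) and Mrps28 (difference of log2 fold changes -1.74 ± 0.22, adjusted p = 4.31e-08) on the other. Library-size scaling gave 8 and 35. Wdfy1, whose exons overlap those of Mrpl44, had log2 fold changes of 1.28 with LPS and 1.48 with LPS and IFNg at 18 h, against -0.40 and -0.91 at 1 h, and its part in the Mrpl44 values was not tested. For IL-4, 11 were higher at 18 h and 0 lower (14.5% and 0% of members), against 10.1% and 11.4% (by DESeq2 8 and 0, and 1 was lower at an unadjusted p below 0.05), led by Mrps6 (difference of log2 fold changes 0.70 ± 0.21, adjusted p = 0.0187) and Mrpl41 (difference of log2 fold changes 0.67 ± 0.22, adjusted p = 0.0294). None of these 11 kept its call under every alternative, and the count was 3 without IL-4 18 h replicate 2 or unstimulated 1 h replicate 2, 4 without IL-4 1 h replicate 3, 6 without unstimulated 18 h replicate 3 and 7 without IL-4 1 h replicate 1, while library-size scaling gave 8 higher and 1 lower. Exons of Mrps6 overlap Gm49711 and Slc5a3 on the same strand over 19.9% of their length. With IL-4 Slc5a3 had log2 fold changes of 0.44 at 18 h and -0.39 at 1 h, neither of them called. Its part in the Mrps6 values was not tested.

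Mrps18a, Mrps18b and Mrps18c share a name as relatives of bacterial S18, though the first is a component of the large subunit. At 18 h with LPS, Mrps18a had 41.4, 58.4 and 47.7 CPM against 29.8, 35.2 and 34.5 CPM unstimulated (log2 fold change 0.56 ± 0.11, adjusted p = 0.000105), and Mrps18c had 31.6, 44.2 and 31.8 CPM against 25.6, 21.8 and 19.4 CPM (log2 fold change 0.68 ± 0.15, adjusted p = 0.000219). Both calls were lost with library-size scaling (0.14 for Mrps18a and 0.26 for Mrps18c) and kept without both libraries that stood apart (0.42 and 0.52). Exons of Mrps18c overlap Gm43511 on the same strand over 23.2% of their length, and its part in the Mrps18c values was not tested. Mrps18b had 30.4, 32.7 and 27.99 CPM with LPS and 29.5, 24.9 and 25.7 CPM unstimulated and was not called (log2 fold change 0.19 ± 0.11, adjusted p = 0.134), and its exons overlap another gene on the opposite strand over 30.5% of their length. With IL-4 at 18 h Mrps18b was called higher (log2 fold change 0.43 ± 0.10, adjusted p = 0.00124), while Mrps18a (0.22) and Mrps18c (-0.04) were not called. Gm16279, the gene that overlaps exons of Mrps18b, had a log2 fold change of 0.40 there. Its part in the Mrps18b values was not tested. Differences between Mrps18a, Mrps18b and Mrps18c were not tested either. Mrpl12, of the stalk that recruits translation factors, had 70.1, 107 and 95.6 CPM with IL-4 at 18 h and 66.04, 65.9 and 56.6 CPM unstimulated (log2 fold change 0.53 ± 0.11, adjusted p = 0.000345; 0.40 without both libraries that stood apart), and it was lower with LPS (-0.32), a call lost without LPS replicate 3 or unstimulated replicate 1 or 2, and with LPS and IFNg (-0.59). Exons of Mrpl12 overlap Gm16755 on the opposite strand over 13.1% of their length. At 18 h Gm16755 had log2 fold changes of 0.51 with IL-4, -0.20 with LPS and -0.60 with LPS and IFNg. Its part in the Mrpl12 values was not tested. Mrpl58, a peptidyl-tRNA hydrolase that frees stalled ribosomes, was lower with LPS and IFNg at 18 h (log2 fold change -0.45 ± 0.14, adjusted p = 0.00675). Mrps36, the dehydrogenase component, was lower there too, at 10.2, 10.6 and 13.4 CPM against 21.7, 16.6 and 15.7 CPM unstimulated (log2 fold change -0.65 ± 0.16, adjusted p = 0.000798), and 3 annotated pseudogenes share its symbol, so its counts are uncertain.

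Of the 5 further mitochondrial ribosomal proteins tested that lack an Mrp symbol, 3 were higher and 1 lower with LPS at 18 h (0 and 1 with library-size scaling). With LPS at 18 h Chchd1 (log2 fold change 0.58 ± 0.16, adjusted p = 0.00209), Aurkaip1 (0.47) and Dap3 (0.31) were higher and Ptcd3 lower (log2 fold change -0.57 ± 0.10, adjusted p = 1.4e-05). With LPS and IFNg 0 were higher and 2 lower (0 and 5 with library-size scaling), Ptcd3 (-0.42) and Gadd45gip1 (-0.28), and with IL-4 Gadd45gip1 (0.36) and Ptcd3 (0.24) were higher. Without both libraries that stood apart 2 were higher and 1 lower with LPS, and 1 higher and 0 lower with IL-4.

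Among the other genes of mitochondrial protein synthesis, 12 of the 32 for assembly of the mitochondrial ribosome and modification of its rRNA were called with LPS at 1 h, 2 higher and 10 lower (median log2 fold change -0.23; 2 and 11 with library-size scaling), beside 10.8% and 11.4% of all tested genes. At 18 h the background for all lists is 31.8% higher and 31.3% lower with LPS, 36.1% each way with LPS and IFNg, and 19% higher and 20.1% lower with IL-4. Among the assembly genes lower with LPS at 1 h were the rRNA methyltransferases Mrm2 (log2 fold change -1.96 ± 0.35, adjusted p = 5.68e-05) and Mrm1 (log2 fold change -0.93 ± 0.17, adjusted p = 6.93e-05). At 18 h with LPS 9 were higher and 10 lower, shares near that background (1 and 14 with library-size scaling), and among the lower was C1qbp, a matrix protein needed to form the ribosome (log2 fold change -1.40 ± 0.09, adjusted p = 7.87e-14). With LPS and IFNg 8 were higher and 9 lower (3 and 20 with library-size scaling), with C1qbp again lower (log2 fold change -1.97 ± 0.10, adjusted p = 4.87e-17). C1qbp was higher with IL-4 (log2 fold change 0.71 ± 0.08, adjusted p = 2.71e-08), where 8 of the 32 were higher and 1 lower. Of the 20 mitochondrial aminoacyl-tRNA synthetase genes, which also include amidotransferase subunits, 1 was higher and 9 lower with LPS at 18 h (median -0.32; 0 and 16 with library-size scaling), and 1 was higher and 14 lower with LPS and IFNg (median -0.54), where Mars2, for methionine, was lowest (log2 fold change -2.15 ± 0.25, adjusted p = 1.05e-08). Of the 13 translation factors 0 were higher and 3 lower with LPS, 1 was higher and 7 lower with LPS and IFNg (0 and 10 with library-size scaling), among them the elongation factors Tufm (-0.53) and Gfm2 (-0.88), and 7 were higher and 0 lower with IL-4 (median 0.35; 5 and 1 with library-size scaling). Of 28 protein import genes 20 were higher and 0 lower with IL-4 (median 0.38), led by Timm8a1 (log2 fold change 1.14 ± 0.12, adjusted p = 1.76e-08) and the chaperonin subunit Hspe1 (log2 fold change 0.92 ± 0.11, adjusted p = 8.75e-08). With LPS 7 were higher and 6 lower and with LPS and IFNg 7 and 7, which became 0 and 16 and 1 and 21 with library-size scaling. Of 19 genes for mitochondrial transcription and RNA processing 3 were higher and 4 lower with LPS, 6 and 6 with LPS and IFNg, and 6 and 1 with IL-4; library-size scaling turned the first 2 of these into 2 and 13 and 2 and 14. Among 10 regulators of mitochondrial biogenesis, 3 were higher and 4 lower with LPS, 5 and 4 with LPS and IFNg (2 and 7 and 3 and 6 with library-size scaling) and 4 and 1 with IL-4. Without both libraries that stood apart, the counts higher and lower with LPS at 18 h were 6 and 9 for assembly, 0 and 7 for synthetases, 0 and 4 for translation factors, 4 and 9 for import, 3 and 4 for transcription and RNA processing and 3 and 3 for regulators. With IL-4 they were 6 and 1, 3 and 1, 6 and 0, 17 and 0, 5 and 1, and 4 and 1 in the same order. The coactivator Ppargc1b was higher both with IL-4 (log2 fold change 2.42 ± 0.28, adjusted p = 3.69e-08) and with LPS and IFNg (log2 fold change 2.60 ± 0.28, adjusted p = 1.74e-09), whereas Myc was higher with IL-4 (log2 fold change 0.56 ± 0.10, adjusted p = 2.65e-05) and lower with LPS and IFNg (log2 fold change -6.65 ± 0.23, adjusted p = 7.4e-21).

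The cytosolic ribosome, built from its own set of proteins, was set beside the members. With LPS at 18 h the median log2 fold change was 0.11 for members and -0.55 for the 83 cytosolic ribosomal proteins tested, of which 2 were higher and 72 lower. With LPS and IFNg it was -0.13 for members and -1.44 for cytosolic ribosomal proteins, of which 0 were higher and 78 lower. With library-size scaling the order was the same, with medians of -0.31 for members and -0.98 for cytosolic genes with LPS, and of -0.67 and -1.97 with LPS and IFNg. Rpl10a (log2 fold change -3.51 ± 0.09, adjusted p = 4.74e-24) and Rpl3 (log2 fold change -2.17 ± 0.07, adjusted p = 8.9e-22), both of the large cytosolic subunit, were among the lowest. With IL-4 the calls in both lists went up, in 39 of 76 members and 69 of 83 cytosolic genes (median 0.33). The 79 nuclear-encoded respiratory chain subunits tested had medians near those of the members. With LPS 32 were higher and 7 lower (median 0.14), but 4 higher and 42 lower with library-size scaling. With LPS and IFNg 14 were higher and 28 lower (median -0.11; 1 and 68 with library-size scaling). With IL-4 61 were higher and 0 lower (median 0.37), led by Cyc1, a subunit of complex III (log2 fold change 0.75 ± 0.08, adjusted p = 2.64e-08). The 9 tested coding genes of the mitochondrial genome, whose mRNAs the mitochondrial ribosome translates, had 0 higher and 8 lower with LPS (median -0.74) and with LPS and IFNg (median -0.79). With IL-4 2 of them were higher and 1 lower, and 1 and 2 with library-size scaling. Without both libraries that stood apart the medians with LPS were -0.00352 for members, -0.70 for cytosolic ribosomal proteins, 0.04 for respiratory chain subunits (19 higher and 12 lower) and -0.67 for the mitochondrial genome. With IL-4 the same step left 25 of 76 members, 56 of 82 cytosolic ribosomal proteins and 49 of 79 respiratory chain subunits called higher. The comparisons with unstimulated cells share those control libraries, and no test of one list against another was made.

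**Figure D4:**
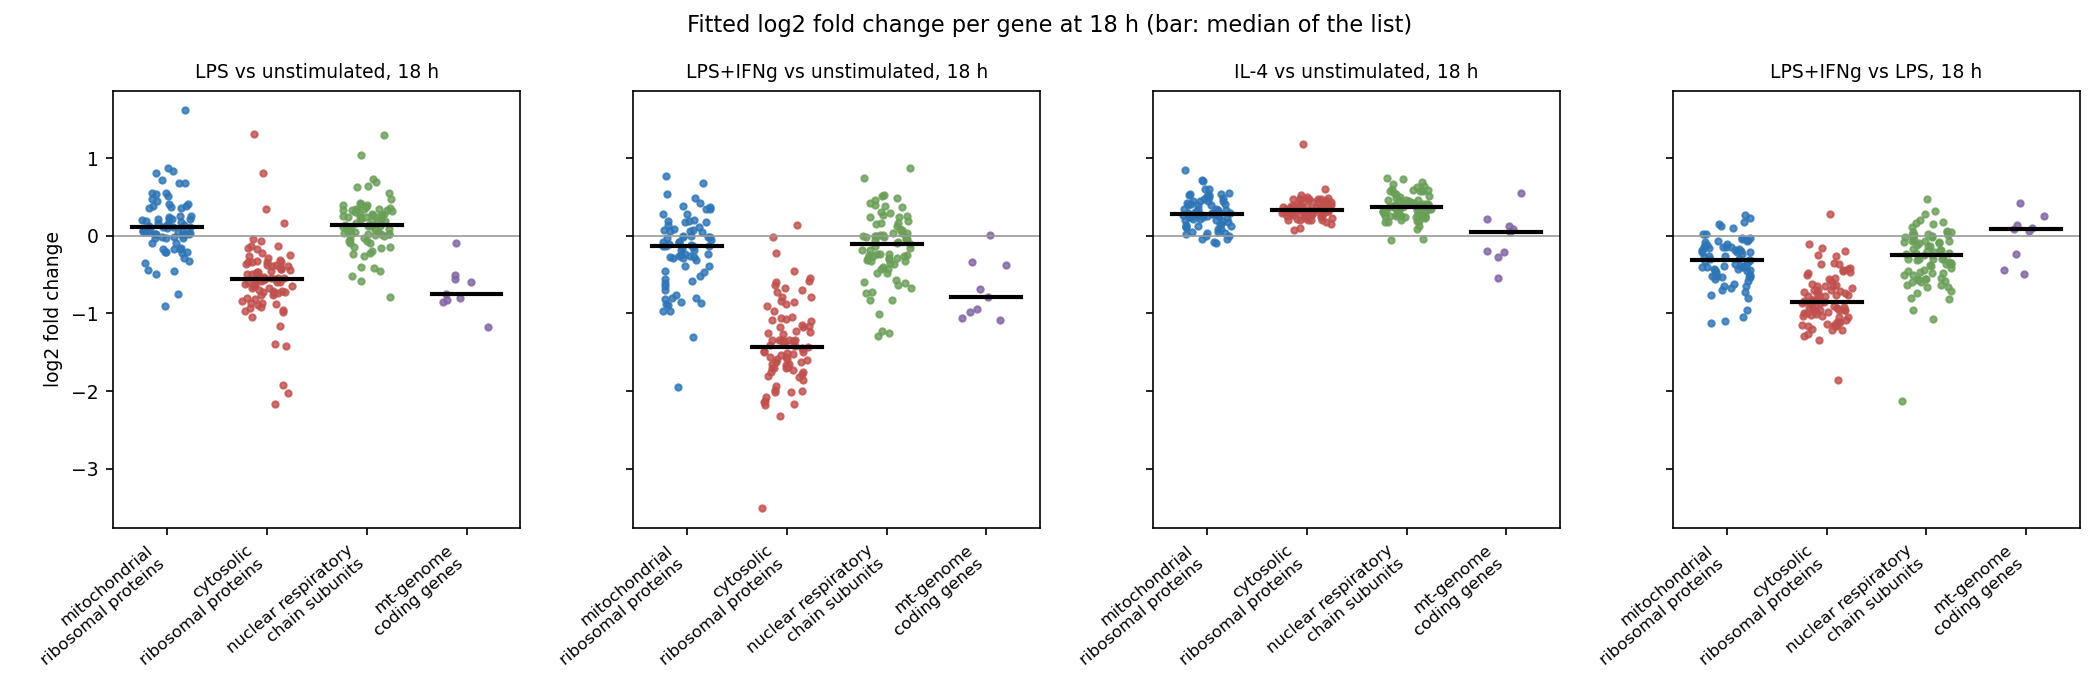
Fitted log2 fold change per gene in 4 comparisons at 18 h for the 76 members, 83 cytosolic ribosomal proteins, 79 nuclear-encoded respiratory chain subunits and 9 coding genes of the mitochondrial genome; each point is a gene and the bar is the median. With LPS and IFNg the members have a median of -0.13, near the respiratory chain subunits (-0.11) and above the cytosolic ribosomal proteins (-1.44); with IL-4 the medians of the first 3 lists lie between 0.28 and 0.37.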

How the data were processed

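RNA was measured with a stranded mRNA kit in 24 libraries, 3 for each of 8 groups taken from the labels. The deposited files hold raw counts of reads per gene, 1 file for each library; STAR and featureCounts are named in the submitters' processing notes, with build GRCm38, and the strand setting is not given in the sources used here. Of 43629 gene identifiers, 42548 matched the GENCODE M21 annotation. Counts were fitted in edgeR 4.0.16 (R 4.3.3) with TMM scaling, its filter on low counts at a minimum of 10 (12765 genes kept), 1 term for each group over all 24 libraries, and the quasi-likelihood test with Benjamini-Hochberg adjustment over all tested genes; calls needed an adjusted p below 0.05. The standard error, given after ± for log2 fold changes, is the absolute log2 fold change divided by the square root of F. It rests on a fit over all 24 libraries and not on the compared groups alone. The same steps were tested on simulated data. Levels are CPM, and SD covers the spread between 3 libraries at 4181890 to 8122945 counts each. The members and gene lists were chosen with earlier results of these data known. Full values are given for up to 5 called members of largest rise and of largest fall per comparison, those of widest and narrowest range over groups, those of highest and lowest level per length, and 6 members fixed by name; of other lists, up to 4 called genes of largest change in a comparison may be named, and mitochondrial ribosomal genes without an Mrp symbol. Alternatives were median-of-ratios and library-size scaling, no filter, DESeq2 1.42.0, the compared groups alone, a replicate block and leaving out each library. Replicate numbers are shared between groups, and the main fit did not use them. For IL-4 against unstimulated cells at 1 h the deviations of same-numbered libraries correlated at 0.133 to 0.231. With the replicate block the counts there stayed at 2 and 0. In the other comparisons of groups such correlations ran from -0.091 to 0.177. Promoters came from RefSeq (GRCm38.p6). A comparison of protein sequences was planned and not made.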

Additional observations from a re-analysis of the deposited data

Results flagged for a closer look

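The tests of whether a log2 fold change differed between 1 h and 18 h called some members for each of the 3 stimuli, as they did for many of all tested genes. For LPS and for LPS with IFNg, a difference in LPS dose cannot be told apart from time. For LPS, 15 members were higher at 18 h and 5 lower, against 27% and 27.2% of all tested genes, and library-size scaling gave 6 and 12. Among them were Mrpl1 with a difference of 1.24 and Mrpl23 with a difference of -1.09. For LPS with IFNg, 13 members were higher and 17 lower, against 31.8% and 32.2% of all tested genes, and library-size scaling gave 8 and 35. Among these were Mrpl44 with a difference of 0.97 and Mrpl23 with a difference of -2.004. For IL-4, 11 members were higher, against 10.1% of all tested genes, with a difference of 0.70 in Mrps6, and none of these 11 calls held under every alternative. Exons of Mrps6 overlap Gm49711 and Slc5a3 on the same strand over 19.9% of their length, and their part in its values was not tested.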

How the results depend on the processing

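With library-size scaling the numbers of members called higher and lower that moved by over 1.5 times were 20 lower with LPS at 1 h, 0 higher and 45 lower with LPS and IFNg at 1 h, 5 higher and 43 lower with LPS at 18 h, 1 higher and 66 lower with LPS and IFNg at 18 h, 4 lower and 0 higher with IFNg added to LPS at 1 h and 18 h in that order, and 7 higher in unstimulated cells at 18 h against 1 h. The same scaling gave 6 higher and 12 lower for the LPS response at 18 h minus 1 h. For the response to LPS with IFNg it gave 8 and 35, and for that to IL-4 1 lower. Single values were followed for up to 5 called members of largest rise and of largest fall per comparison, and 6 fixed by name. Among their called values this scaling reversed 2, those of Mrpl52 (-0.045) and Mrpl32 (-0.11) with LPS and IFNg at 18 h. Reversals in other members were not counted, and the cause was not tested. With the replicate block 10 members were lower with LPS and IFNg at 1 h, and no other count moved by over 1.5 times. Fitting the compared groups alone gave 11 lower with LPS and IFNg at 1 h. That fit, the fit with no filter and DESeq2 each gave 1 higher with IL-4 at 1 h and 0 higher with IFNg added to LPS at 18 h, and the fits of the compared groups alone and with no filter gave 3 lower for the LPS response at 18 h minus 1 h. Leaving out single libraries, or both that stood apart, gave 2 to 5 lower with LPS at 1 h, 1 to 3 higher with LPS and IFNg at 1 h, 0 to 2 higher with IL-4 at 1 h, 12 to 23 higher and 5 to 14 lower with LPS at 18 h, 21 to 44 higher with IL-4 at 18 h, 0 to 3 higher and 24 to 43 lower with IFNg added to LPS at 18 h, 0 to 4 higher in unstimulated cells at 18 h against 1 h, 2 to 7 lower for the LPS response at 18 h minus 1 h, and 3 to 11 higher and 0 to 1 lower for that of IL-4. Leaving out both libraries that stood apart was chosen after seeing the data, and gave 13 higher and 14 lower with LPS at 18 h, 25 higher with IL-4 at 18 h, 25 lower with IFNg added to LPS at 18 h, and 7 higher and 1 lower for the IL-4 response at 18 h minus 1 h. Among the values of these followed members under the alternatives, 172 lost their call, 37 gained one and 2 called values reversed direction. The remaining 1926 stayed on the same side of the threshold, and those not called may have changed direction. With 3 libraries a group, small changes in members of low count may pass unseen.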
